A study of Homo sapiens with 12 samples.

Results

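Mitochondrial ribosomal proteins were taken as the genes whose symbol is MRPL or MRPS followed by a number, with a closing letter A, B or C allowed and pseudogenes and hyphenated read-through symbols left out. The rule found 78 genes among the 28278 symbols of the count table, of which 49 had an MRPL symbol (large subunit) and 29 an MRPS symbol (small subunit). MRPS30 and MRPS18A are placed in the large subunit in structures of the ribosome and MRPS36 is a component of the 2-oxoglutarate dehydrogenase complex, so that by structure there were 51 large and 26 small subunit genes. All 78 were matched to GENCODE 44 on hg38, and they lay on 21 chromosomes with at most 8 on any one.

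The mitochondrial ribosome translates the few membrane proteins of the respiratory chain that are still encoded in mitochondrial DNA. Its RNA comes from that DNA, whereas each of its proteins is encoded in the nucleus, translated in the cytosol and imported. Many of its subunits have no bacterial counterpart, and inherited defects in several of them impair oxidative phosphorylation in tissues of high energy demand, nervous tissue among them.

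The cells came from 1 human embryonic stem cell line, WA09-Islet1-GFP, labelled as wild-type, in which GFP reports the motor neuron transcription factor Islet1. Cultures differentiated toward motor neurons received the organochlorine pesticide cis-chlordane over 16 hours or, as controls, the solvent DMSO alone, and GFP-positive and GFP-negative cells were sorted apart before bulk mRNA sequencing. There were 4 groups with 3 libraries each, which were control GFP-negative, control GFP-positive, treated GFP-negative and treated GFP-positive. The labels give a dose of 10 µM, the study's methods give another dose for the sequenced cells, and the sample names of treated and control libraries alike begin with the word untreated. A biological replicate was an independent thaw of stored cells, so replicates share the line and p-values measure the spread between such thaws. Sort fractions of the same replicate number came from 1 culture. The main fits between fractions did not use this pairing, so their SE and p-values include the spread between cultures.

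Libraries held 23414935 to 38347050 counts. ISL1, the gene behind the sort, had 62.3 to 68.6 CPM (counts scaled to a common library size) in control GFP-positive and 2.41 to 2.80 CPM in control GFP-negative libraries. In treated libraries it had 8.01 to 15.3 CPM in GFP-positive and 0.388 to 0.691 CPM in GFP-negative cells, so the fractions stayed apart while its level was lower after treatment in each. Summed CPM of 14 cycling genes was 1935 to 2033 in control GFP-negative, 234 to 295 in control GFP-positive, 653 to 760 in treated GFP-negative and 133 to 160 in treated GFP-positive libraries. Summed CPM of 12 neural progenitor genes was 6367 to 8460, 2938 to 3309, 7373 to 8402 and 2368 to 3192 in the same order, a sum of which VIM, an intermediate filament gene that rose in treated GFP-negative cells, made up 6004 to 7115 CPM in those libraries. Motor neuron genes, 10 in all, summed to 324 to 357, 1813 to 2403, 122 to 151 and 573 to 893 CPM, highest in control GFP-positive cells. Most of that highest sum was PRPH (544 to 932 CPM), SLC18A3 (674 to 922) and SLC5A7 (293 to 364). LHX3 went the other way, with 3.32 to 5.48 CPM in control GFP-negative and 1.49 to 2.34 CPM in control GFP-positive libraries. Between fractions, 7 of the 10 genes were called higher in GFP-positive cells and 1 lower in controls, and 6 and 1 in treated cultures. In bulk libraries, fewer cells of a type and less RNA per cell cannot be told apart.

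Promoter windows of 300 bases, from 250 before to 50 after the start, were given by RefSeq (GRCh38.p14) for 69 of the 78 genes, in 85 windows. They are shown for the 3 genes with a window that rose most and the 3 that fell most in treated GFP-positive cells (below), so that the letters described next can be seen in place. Of these, MRPS24 had few counts and passed the filter on low counts only through its control libraries. Capitals mark exact matches, on either strand, to the letters GCATGCGC (NRF1), CCGGAAG (ETS factors such as GABPA), AAGATGGC (YY1), GGGCGG (SP1), TGACGTCA (CRE), TGATGNAA (ATF4) and CACGTG (E-box). The windows lie at chr4:77862580-77862879 (plus strand) for MRPL1, chr3:131502922-131503221 (minus strand) for MRPL3, chr3:139343770-139344069 (plus strand) for MRPS22, chr7:43869468-43869767 (minus strand) for MRPS24, chr1:156741039-156741338 (minus strand) for MRPL24 and chr16:370489-370788 (minus strand) for MRPL28. MRPL23 is named only.
MRPL1: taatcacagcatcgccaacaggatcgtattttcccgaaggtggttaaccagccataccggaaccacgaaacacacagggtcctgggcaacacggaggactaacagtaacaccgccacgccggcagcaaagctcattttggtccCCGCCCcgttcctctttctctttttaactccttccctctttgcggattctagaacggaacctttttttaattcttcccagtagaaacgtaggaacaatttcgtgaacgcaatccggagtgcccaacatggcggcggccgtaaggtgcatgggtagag
MRPL3: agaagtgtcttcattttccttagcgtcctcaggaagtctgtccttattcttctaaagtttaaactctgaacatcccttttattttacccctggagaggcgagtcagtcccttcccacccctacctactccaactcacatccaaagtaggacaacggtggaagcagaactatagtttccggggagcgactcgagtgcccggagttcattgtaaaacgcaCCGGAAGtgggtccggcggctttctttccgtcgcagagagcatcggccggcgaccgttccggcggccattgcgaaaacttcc
MRPS22: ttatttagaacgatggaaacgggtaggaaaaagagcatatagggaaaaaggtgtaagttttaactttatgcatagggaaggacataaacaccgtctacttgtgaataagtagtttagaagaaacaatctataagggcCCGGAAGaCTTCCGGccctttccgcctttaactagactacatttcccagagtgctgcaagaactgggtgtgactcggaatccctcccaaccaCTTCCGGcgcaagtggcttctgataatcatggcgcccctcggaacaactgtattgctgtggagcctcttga
MRPS24: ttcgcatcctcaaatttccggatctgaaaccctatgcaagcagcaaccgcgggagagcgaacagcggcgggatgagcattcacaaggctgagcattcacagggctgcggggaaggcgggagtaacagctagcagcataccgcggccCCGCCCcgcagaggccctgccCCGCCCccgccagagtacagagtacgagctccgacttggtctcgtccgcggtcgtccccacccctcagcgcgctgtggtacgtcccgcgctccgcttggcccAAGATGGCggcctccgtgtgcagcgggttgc
MRPL24: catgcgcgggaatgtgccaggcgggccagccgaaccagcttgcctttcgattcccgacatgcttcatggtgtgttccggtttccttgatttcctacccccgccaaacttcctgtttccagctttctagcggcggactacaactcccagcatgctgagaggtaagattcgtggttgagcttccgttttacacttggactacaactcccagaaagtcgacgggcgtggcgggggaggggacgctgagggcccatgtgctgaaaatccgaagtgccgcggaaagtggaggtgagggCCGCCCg
MRPL28: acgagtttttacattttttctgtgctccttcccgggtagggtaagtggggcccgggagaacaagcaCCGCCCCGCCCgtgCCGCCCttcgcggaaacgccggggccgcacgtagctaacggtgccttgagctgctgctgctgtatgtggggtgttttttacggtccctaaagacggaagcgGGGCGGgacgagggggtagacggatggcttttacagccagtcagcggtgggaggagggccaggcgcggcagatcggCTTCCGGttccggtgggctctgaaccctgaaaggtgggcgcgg

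The ETS letters were in 33 of the 85 member windows (38.8%) and in 10.3% of all 35116 windows. The YY1 letters were in 23 member windows (27.1%) against 2.9% of all, and the NRF1 letters in 6 (7.1%) against 3.1%. The SP1 letters were common in both, with 60.0% of member windows and 45.0% of all. The CRE and ATF4 letters were each in 1 member window (1.2%), against 1.8% and 3.6% of all windows, and the E-box letters in 9 (10.6%) against 7.3%. By gene, the ETS letters were in 18 of 42 large and 12 of 27 small subunit genes with a window, and the YY1 letters in 13 and 8. Among the windows shown, MRPS22 held the ETS letters 3 times, MRPL3 and MRPL28 held them 1 time each, and MRPS24 held the YY1 letters at 19 bases past its start. By gene, the ETS letters were in 43.5% of member genes and 12.2% of all genes. Of members called in treated GFP-positive cells, the ETS letters were in 5 of 7 that rose and 4 of 14 that fell and had a window. In the same order the SP1 letters were in 4 and 10, the YY1 letters in 1 and 4 and the CRE letters in 0 and 1. The NRF1, ATF4 and E-box letters were in 0 of either. The 14 include MRPS24, which holds SP1 and YY1 letters and whose call rests on few counts and cannot support a fall. No difference between these counts was tested. A match says only that the letters are present.

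Levels differed widely among members. Per kilobase of transcript, a scale on which genes can be compared, the highest in control GFP-positive cells was MRPL41, a subunit found only in mitochondrial ribosomes, at 197 ± 33.6 CPM per kb (SD, n = 3). MRPL12, the stalk protein that also binds mitochondrial RNA polymerase, followed at 137 ± 22.2, with MRPL38 at 119 ± 26.8, MRPS34 at 107 ± 18.5 and MRPS21 at 99.9 ± 13.6 CPM per kb. Among the genes just named, neighbours from MRPL12 downward overlapped within 1 SD. The lowest were MRPS18B at 0.126 ± 0.0951, MRPS24 at 0.674 ± 0.106, MRPL19 at 1.74 ± 0.0942, MRPL42 at 2.40 ± 0.640 and MRPL45 at 2.46 ± 0.405 CPM per kb. MRPL42 and MRPL19 have canonical transcripts of 15557 and 7825 bases in the annotation, which lowers a value per length.

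MRPS18B had 2 to 10 counts in 11 libraries and 85 counts in control GFP-negative replicate 3, and did not pass the filter on low counts in any comparison. Whether reads of this gene were counted in full is not known from the sources used here, so its place as the lowest member is uncertain. MRPS18A and MRPS18C, the other relatives of bacterial S18, had 31.9 to 109 CPM and 12.9 to 29.4 CPM. MRPS24 had 2 to 33 counts, and 23.2% of its exon bases are shared on the same strand with the read-through gene URGCP-MRPS24, which had 0 counts in all 12 libraries. How the authors' counting treated shared bases is not given in the sources used here, so the level of MRPS24 is uncertain.

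Exons were shared with another gene by 41 of the 78 members, since 37 had none shared. Sharing was on the same strand for 18 members and on the opposite strand for 30. The libraries were made with a strand-keeping kit, but the strand setting of the counting is not given. MRPL53 shares 72.9% of its exon bases on the same strand and 79.4% on the opposite one. MRPL12 shares 69.5% of its exon bases on the same strand, MRPL38 41.1%, MRPL33 21.2% and MRPL19 19.5%, and MRPS18A shares 50.9% and MRPS22 42.8% with a gene on the opposite strand.

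Control GFP-positive cells had lower levels of many members than the GFP-negative cells of the same cultures. Of 77 members tested, 29 were lower, 0 were higher and 48 were not called, where a call was an adjusted p under 0.05 (edgeR quasi-likelihood test, Benjamini-Hochberg over all genes in the fit). DESeq2 called 31 lower and 0 higher, beside 18.3% and 14.5% of all genes in that fit. In edgeR 41 members had an unadjusted p under 0.05. Among all 15404 genes tested, 23.1% were lower and 17.1% were higher. The median log2 fold change was -0.46 over members and -0.02 over all genes tested, and 71 of the 77 values were negative. With the same-numbered cultures as a replicate block, 47 members were lower and 0 higher, beside 27.7% of all genes lower and 23.9% higher.

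The lower members included the stalk proteins MRPL10, MRPL11 and MRPL12 and the exit tunnel proteins MRPL4 and MRPL23 of the large subunit. MRPL11, at the base of the stalk that recruits translation factors, had 124, 97.5 and 96.5 CPM in control GFP-negative and 36.9, 43.9 and 30.5 CPM in control GFP-positive replicates 1 to 3. Every GFP-positive library lay below every GFP-negative one, and the log2 fold change was -1.62 ± 0.18 (SE, adjusted p = 7.34e-05). MRPL12 had 345, 253 and 204 CPM against 140, 159 and 115 CPM, also without overlap, with a log2 fold change of -1.05 ± 0.20 (adjusted p = 0.00216).

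MRPL23, a protein of the exit tunnel, had 28.7, 17.4 and 14.3 CPM in GFP-negative and 10.6, 11.4 and 7.33 CPM in GFP-positive controls, a log2 fold change of -1.14 ± 0.28 (adjusted p = 0.00853). MRPL4, which lines the same tunnel, had 193, 166 and 159 CPM against 88.3, 101 and 75.4 CPM, a log2 fold change of -1.07 ± 0.15 (adjusted p = 0.000377). In both genes the groups did not overlap. MRPL14, at the interface of the subunits, and MRPL17, near the exit of the tunnel, fell by 1.06 ± 0.27 and 1.03 ± 0.17 on the log2 scale (adjusted p = 0.0108 and 0.00106). These 6 were the members at least 2-fold lower, beside 15.3% of all genes lower by that rule. MRPL14 had 78.7 CPM in control GFP-negative replicate 1 and 33.6 to 47.4 CPM in the other GFP-negative replicates, against 22.8 to 30.3 CPM in GFP-positive cells.

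Large subunit genes were lower in 21 of 49 (42.9%) and small subunit genes in 8 of 28 (28.6%), beside 23.1% of all genes, with medians of -0.53 and -0.44. By structure the counts were 23 of 51 (45.1%) and 6 of 25 (24%, near the share of all genes). Among small subunit genes, MRPS12, of the decoding centre, had a log2 fold change of -0.83 ± 0.21 (adjusted p = 0.00965), and MRPS22, mutated in an inherited defect of oxidative phosphorylation, of -0.73 ± 0.22 (adjusted p = 0.0246). MRPS16 was not called, with 87.7 to 124 CPM against 85.6 to 98.1 CPM. MRPL44, which is also mutated in an inherited mitochondrial disease, had 46.1 to 57.9 CPM against 55.2 to 56.2 CPM and a log2 fold change of 0.03 ± 0.15.

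Summed levels did not overlap between the fractions. Members together had 4358 to 6469 CPM in control GFP-negative and 3484 to 4270 CPM in control GFP-positive libraries. The ratio of large to small subunit sums was 2.10 to 2.17 and 1.83 to 1.98, which did not overlap. Cytosolic ribosomal proteins, 84 genes of the RPL and RPS families, moved further, with 54471 to 92140 CPM against 32266 to 42239 CPM, and 76 of 79 tested were lower (median log2 fold change -1.01). Their part, and that of the cycling and progenitor genes above, in the members' difference was not tested.

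**Figure D1:**
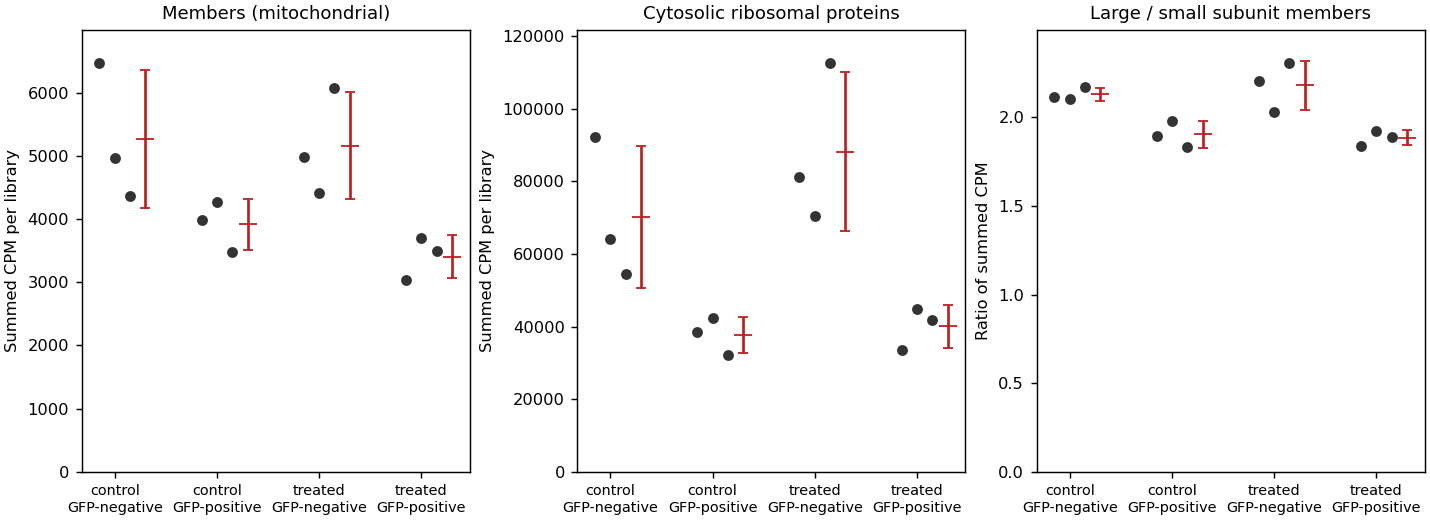
Points are libraries and red marks are mean ± SD (n = 3) of summed CPM of the members (left), summed CPM of cytosolic ribosomal proteins (middle) and the ratio of large to small subunit sums (right) in the 4 groups. GFP-positive libraries have ratios of 1.83 to 1.98, below the 2.03 to 2.31 of GFP-negative libraries.

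Fewer members were called once transcript length was accounted for. With each library's trend over transcript length removed, 16 of 77 members were lower and 1 was higher, and the median was -0.25. Of the 16, 15 were among the 29. In that fit 24.4% of all genes were lower and 19.9% higher, so the members' count was not above that share. The members' median transcript length was 1242 bases, against 2953 bases over 19030 protein-coding genes. Leaving out a library gave 11 lower members without control GFP-positive replicate 3, 15 without its replicate 1 and 47 without control GFP-negative replicate 3, while the other 3 such fits gave 20 to 23. The shares of all genes lower were 17.7%, 18.1% and 25% in the same order, and 18.4% to 23.1% in the other 3.

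Treated GFP-positive cells also had lower levels than treated GFP-negative cells. Of 76 members tested, 42 were lower, 3 were higher and 31 were not called, beside 24.9% of all genes lower and 24.9% higher. The median was -0.48 over members and 0.05 over all genes tested. Large subunit genes were lower in 30 of 49 (median -0.53) and small subunit genes in 12 of 27 (median -0.39). The difference of these medians became -0.00602 with the GC trend removed and 0.0242 with the replicate block added to that.

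MRPL11 again had the largest difference, with 73.5, 60.7 and 90.8 CPM in treated GFP-negative and 19.7, 25.1 and 25.1 CPM in treated GFP-positive replicates, a log2 fold change of -1.66 ± 0.18 (adjusted p = 1.39e-05). MRPL23 had 12.4, 9.52 and 11.4 CPM against 3.78, 5.01 and 3.44 CPM (log2 fold change -1.42 ± 0.23, adjusted p = 0.000241). MRPS18A, a large subunit protein despite its symbol, had 77.8, 71.2 and 100 CPM against 31.9, 36.6 and 34.3 CPM (log2 fold change -1.25 ± 0.16, adjusted p = 5.42e-05). The groups did not overlap for any of these. MRPL54 and MRPL24 fell by 1.15 ± 0.25 and 1.13 ± 0.19 on the log2 scale, and MRPL37, a mitochondria-specific subunit, went from 184 to 219 CPM to 82.9 to 107 CPM (adjusted p = 7.55e-05). In all 12 members were at least 2-fold lower, beside 13.7% of all genes.

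The 3 higher members were MRPS25 (log2 fold change 0.53 ± 0.15, adjusted p = 0.0121), MRPL42 (0.50 ± 0.17, adjusted p = 0.0283) and MRPL32 (0.48 ± 0.18, adjusted p = 0.045). MRPL32, whose maturation by a protease of the inner membrane precedes ribosome assembly, had 29.8, 31.6 and 40.4 CPM in GFP-negative and 37.7, 48.0 and 53.4 CPM in GFP-positive cells, which overlapped. MRPL32 was not called in 8 of 16 alternative fits and had 0.257 (adjusted p = 0.227) with the GC trend removed. MRPL42 had 0.165 there (adjusted p = 0.477) and changed sign to -0.134 with the length trend removed. With the length trend removed 27 members were lower and the median was -0.21, and of these 25 were among the 42. In that fit 24.6% of all genes were lower and 20.6% higher. Cytosolic ribosomal proteins were lower in 75 of 80, with a median of -1.03.

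**Figure D2:**
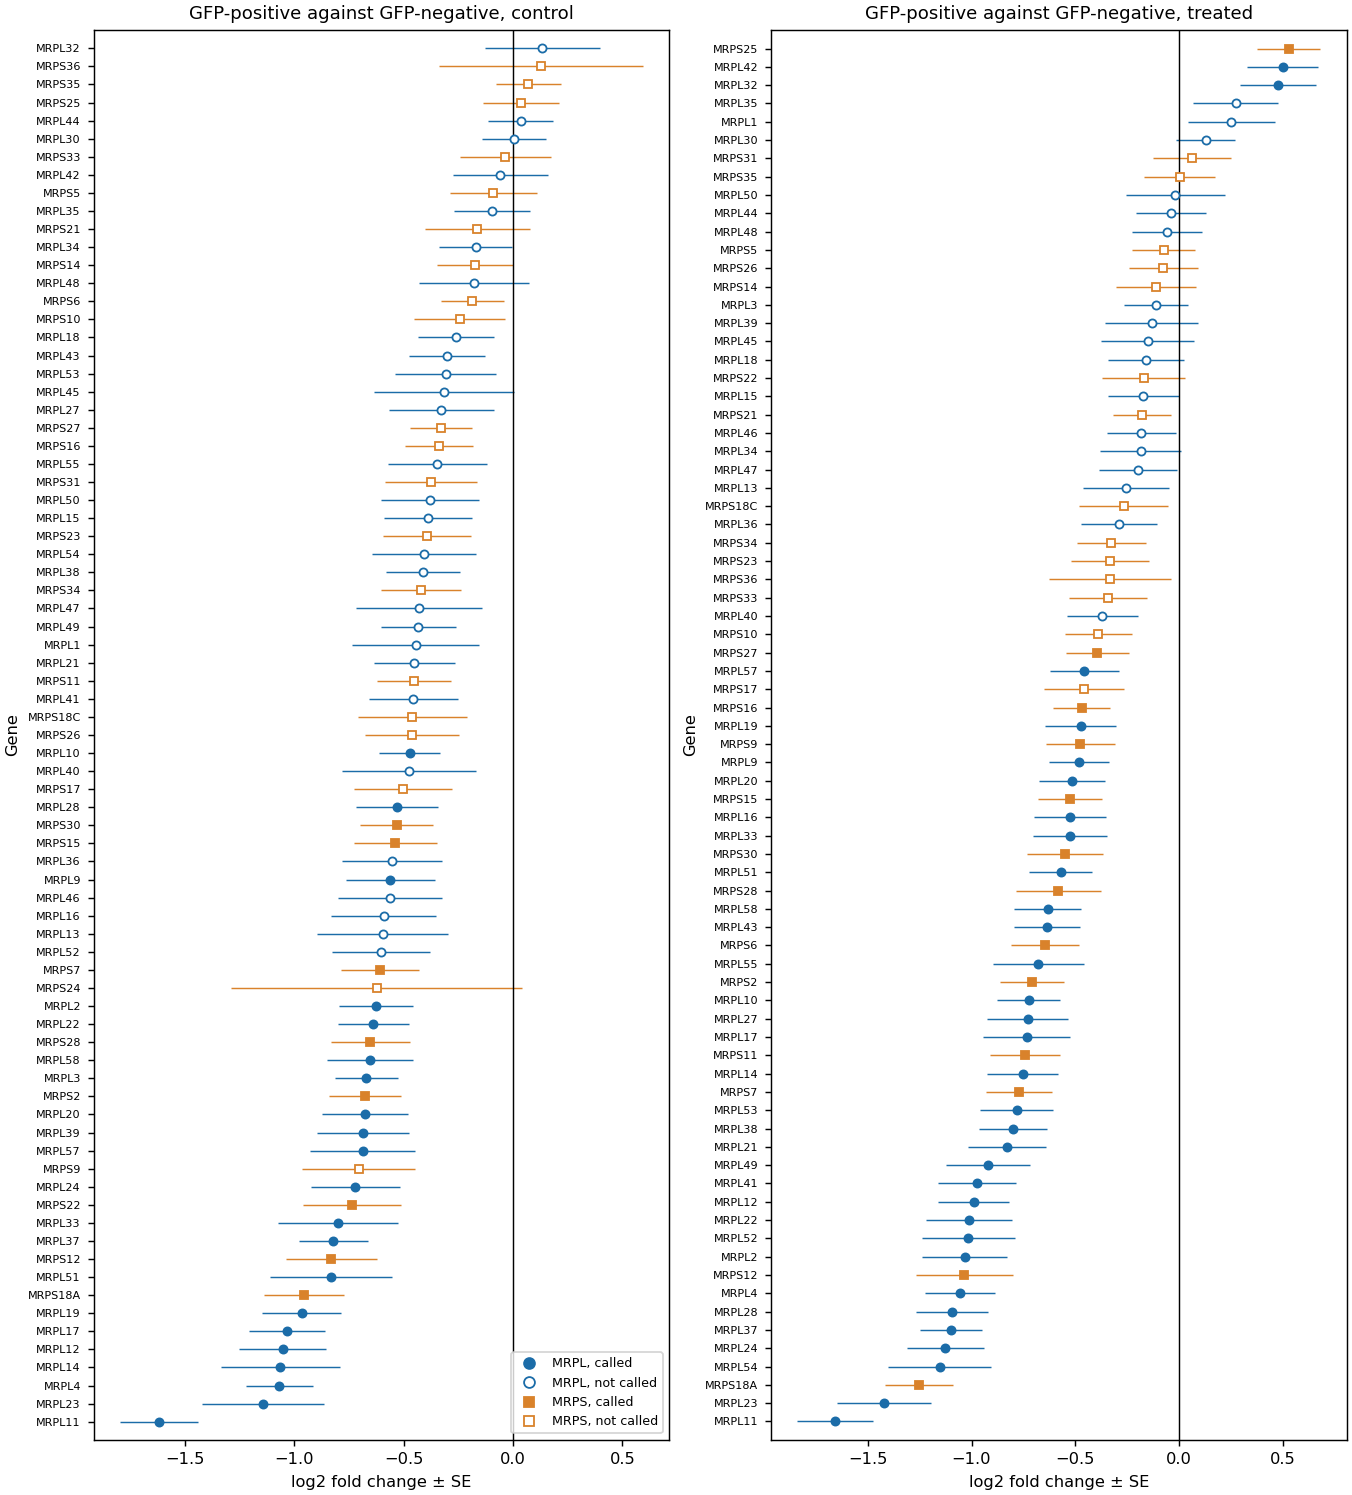
Log2 fold change ± SE of each member tested, GFP-positive against GFP-negative, in control (left) and treated cultures (right), with filled marks for members called, circles for MRPL and squares for MRPS. Most members lie left of 0 in both, and MRPL11 lies farthest left at -1.62 and -1.66.

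Treatment changed individual members of GFP-positive cells in both directions. Of 77 members tested, 7 rose, 15 fell and 55 were not called. The 15 include MRPS24, which passed the filter on low counts only through its control libraries. Among all 15333 genes tested 26.5% rose and 24.4% fell, so the members' shares of 9.09% and 19.5% were below those of all genes. The median log2 fold change was -0.07 over members and 0.03 over all genes tested. By subunit, 4 large and 3 small subunit genes rose and 9 large and 6 small subunit genes fell. In the same comparison 10 of 14 cycling, 6 of 11 progenitor, 9 of 10 motor neuron and 8 of 11 neuron genes tested were lower. Higher were 2 progenitor and 2 neuron genes, and 0 cycling and 0 motor neuron genes. The part of these lists in the members' changes was not tested.

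MRPL1, the protein of the mobile arm at the exit for spent tRNA, had 12.9, 8.43 and 13.2 CPM in control and 21.5, 30.7 and 27.1 CPM in treated GFP-positive replicates. All treated libraries lay above all controls, and the log2 fold change was 1.27 ± 0.21 (adjusted p = 4.59e-06). It was the 1 member at least 2-fold higher, beside 12.8% of all genes. MRPL3, which reaches toward the catalytic centre of the large subunit, had 45.6, 43.8 and 46.6 CPM against 72.0, 85.6 and 94.0 CPM (log2 fold change 0.95 ± 0.17, adjusted p = 1.42e-05).

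MRPS22, a mitochondria-specific protein of the small subunit, had 17.9, 13.2 and 15.4 CPM in control and 25.2, 27.5 and 32.3 CPM in treated GFP-positive replicates (log2 fold change 0.94 ± 0.19, adjusted p = 0.000109). MRPL33 had 29.5, 23.2 and 22.9 CPM against 34.9, 47.4 and 41.6 CPM (log2 fold change 0.78 ± 0.18, adjusted p = 0.000605). Neither gene overlapped between the groups. MRPS35 rose by 0.57 ± 0.17, MRPL18, of the central protuberance, by 0.48 ± 0.18 and MRPS10 by 0.47 ± 0.19 on the log2 scale (adjusted p = 0.00577, 0.0235 and 0.0382).

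Among the members that fell, MRPL23 had 10.6, 11.4 and 7.33 CPM in control and 3.78, 5.01 and 3.44 CPM in treated GFP-positive replicates (log2 fold change -1.20 ± 0.24, adjusted p = 8.86e-05). MRPL24, another protein of the exit tunnel, had 49.1, 55.4 and 45.3 CPM against 21.1, 29.1 and 19.4 CPM (log2 fold change -1.04 ± 0.19, adjusted p = 1.68e-05). Each treated library was below each control for both. MRPS24 also fell by over 2-fold in the fit (-2.02 ± 0.61, adjusted p = 0.00607), on 10 to 16 counts against 2 to 5 counts. It passed the filter on low counts only through the control group, where it is high, so its call cannot support a fall. With at least 10 counts required in every library, 76 members were tested and 14 fell, beside 25.2% of all genes in that fit. MRPL23, MRPL24 and MRPS24 were the 3 members at least 2-fold lower, beside 11.2% of all genes.

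MRPL28 had 146, 184 and 112 CPM in control and 62.6, 88.0 and 67.3 CPM in treated GFP-positive replicates, a log2 fold change of -0.95 ± 0.18 (adjusted p = 3.3e-05). MRPL27, which reaches the catalytic centre, fell by 0.85 ± 0.18 (adjusted p = 0.000175) and MRPS6 by 0.80 ± 0.17 (adjusted p = 0.000214). MRPL41 went from 93.0 to 131 CPM to 57.1 to 75.9 CPM and MRPL12 from 115 to 159 CPM to 70.9 to 95.5 CPM, log2 fold changes of -0.78 ± 0.17 and -0.73 ± 0.17. These were the most abundant members per length, and neither overlapped between groups. MRPS11, MRPL16 and MRPL11 fell by 0.70 ± 0.18, 0.66 ± 0.20 and 0.60 ± 0.19, and MRPS18A, MRPL4, MRPS7 and MRPS27 by 0.39 to 0.45.

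**Figure D3:**
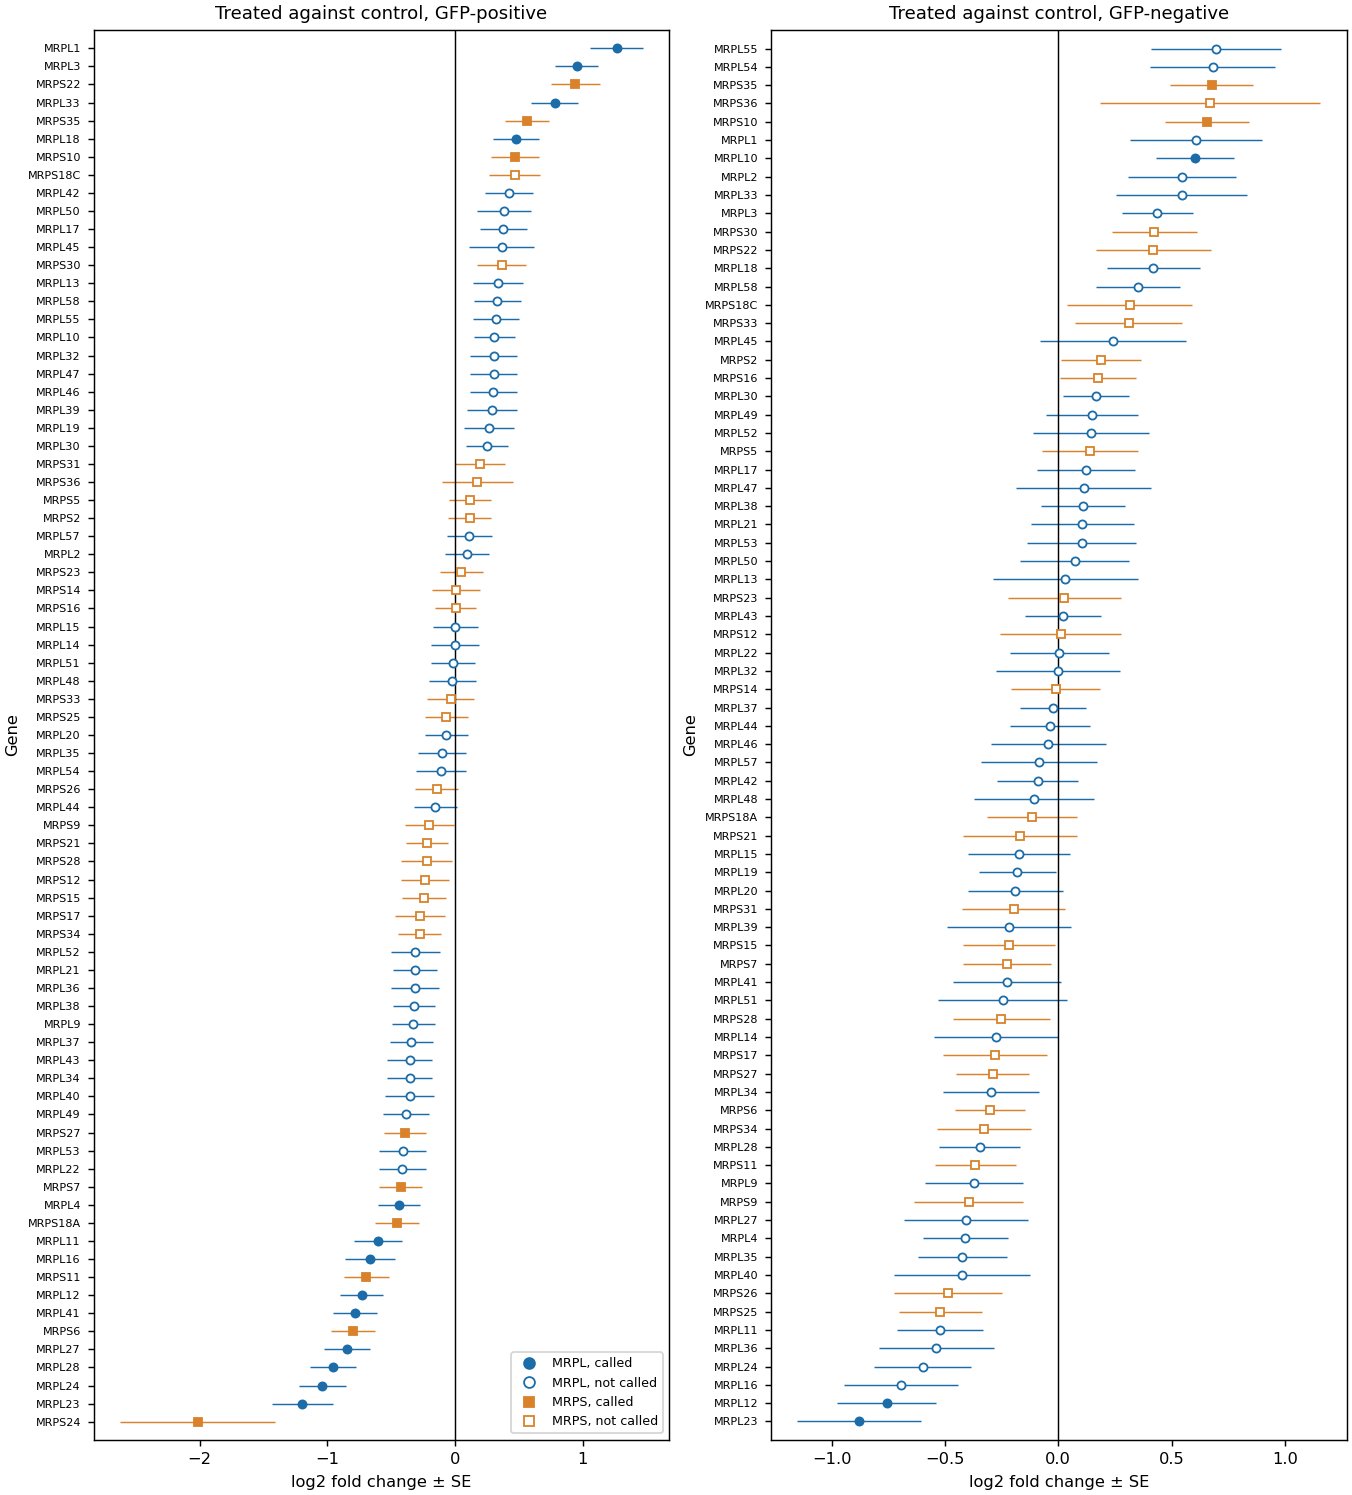
Log2 fold change ± SE of each member tested, treated against control, in GFP-positive (left) and GFP-negative cells (right), with filled marks for members called, circles for MRPL and squares for MRPS. In GFP-positive cells 7 members are called to the right of 0 and 15 to the left, and in GFP-negative cells 3 and 2.

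Members that rose had transcripts with less G and C than members that fell. Median GC content was 41.5% over the 7 that rose (36.9% to 48.0%) and 54.6% over the 15 that fell (46.4% to 66.7%), against 48.0% over all 77. The 15 include MRPS24 (57.4% GC), whose call cannot support a fall. Across the 77 members, GC content and log2 fold change had a Pearson r of -0.582 and a Spearman rho of -0.612, a description over genes that share 6 libraries and are not replicates. With each library's trend over GC content removed, 9 members rose and 16 fell, of which 4 and 10 were the same members. In that fit 23.7% of all genes rose and 23.1% fell. MRPL12 then had a log2 fold change of -0.230 (adjusted p = 0.157) and MRPL41 of -0.225 (adjusted p = 0.168). MRPS35 and MRPS10 went to 0.125 and 0.122 and MRPL33 to 0.407 (adjusted p = 0.482, 0.543 and 0.0505). MRPL1, MRPL3 and MRPS22 were still called, at 0.70, 0.64 and 0.65, and so were MRPL23, MRPL24 and MRPL28, at -0.69, -0.83 and -0.58.

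**Figure D4:**
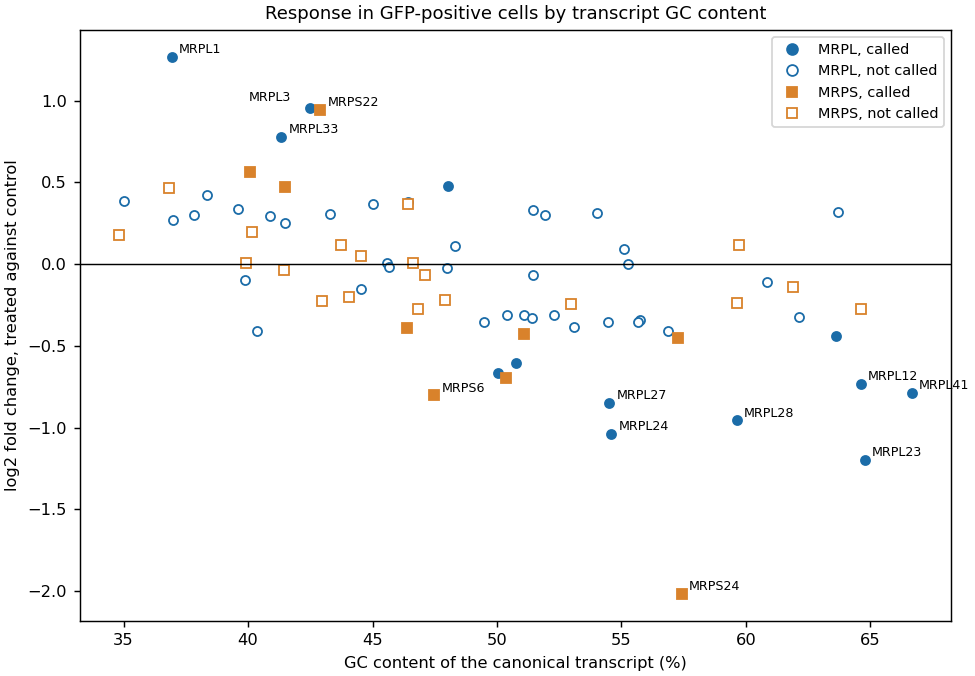
Log2 fold change of each member, treated against control in GFP-positive cells, against the GC content in percent of its canonical transcript, with filled marks for members called, circles for MRPL and squares for MRPS. Filled marks above 0 lie between 36.9% and 48.0% GC and those below 0 between 46.4% and 66.7%. Those below 0 include MRPS24 at 57.4%, which rests on few counts.

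Neighbouring genes did not have to share a call. MRPL46 (chromosome 15, 88459477 to 88467390, minus strand) and MRPS11 (88467453 to 88480776, plus strand) start 62 bases apart on hg38, and were the 1 pair of members within 100 kb. MRPS11 fell in treated GFP-positive cells, from 55.3 to 76.4 CPM to 32.9 to 40.1 CPM. MRPL46 had 19.6 to 23.5 CPM in control and 22.4 to 26.3 CPM in treated libraries and was not called (log2 fold change 0.30 ± 0.19, adjusted p = 0.178).

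In GFP-negative cells fewer members were called. Of 76 tested, 3 rose, 2 fell and 71 were not called, beside 15.3% of all genes that rose and 16.2% that fell. By the rule of at least 2-fold, 0 members were called in either direction in edgeR, beside 8.59% and 9.75% of all genes, and 14 members had an unadjusted p under 0.05. The median was -0.04 over members and -0.01 over all genes tested. DESeq2 called 4 of 78 members higher and 6 lower at any fold, beside 14% and 14.4% of all genes in that fit. In this comparison all 14 cycling genes were lower, as were 8 of 11 progenitor (median -1.27), 6 of 10 motor neuron, 9 of 11 neuron and 8 of 9 interneuron genes tested. Higher were 1 progenitor and 2 neuron genes, and 0 motor neuron and 0 interneuron genes. The part of these lists was not tested.

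MRPS35 had 35.3, 32.8 and 33.4 CPM in control and 53.5, 44.4 and 66.8 CPM in treated GFP-negative replicates (log2 fold change 0.68 ± 0.18, adjusted p = 0.0192). MRPS10 rose by 0.66 ± 0.19 (adjusted p = 0.023). MRPL10, the protein that anchors the MRPL12 stalk, had 170, 155 and 140 CPM against 226, 205 and 287 CPM (log2 fold change 0.60 ± 0.17, adjusted p = 0.024). MRPL12 itself had 345, 253 and 204 CPM against 160, 133 and 189 CPM (log2 fold change -0.76 ± 0.22, adjusted p = 0.0254), opposite in direction to MRPL10 in this fit. MRPL12 was called in 10 of 16 alternative fits and MRPL10 in 13. With the GC trend removed MRPL12 had -0.444 (adjusted p = 0.0716). MRPL23 fell by 0.88 ± 0.27 (adjusted p = 0.0339). None of these groups overlapped.

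The calls in GFP-negative cells depended on single libraries. Without control replicate 1, which had the highest summed level of the controls, 10 members rose and 0 fell. Without control replicate 3 the counts were 3 and 11, without treated replicate 2 they were 6 and 0, and without treated replicate 3 they were 0 and 3. Without control replicate 2 or treated replicate 1 none was called in either direction. Across the fits without 1 library, 8.53% to 17.5% of all genes rose and 8.89% to 17.4% fell. Summed CPM of members was 6469, 4962 and 4358 in control and 4987, 4411 and 6077 in treated GFP-negative replicates, and that of cytosolic ribosomal proteins was highest in the same libraries, 92140 in control replicate 1 and 112649 in treated replicate 3. With the GC trend removed 3 rose and 2 fell, of which 1 and 0 were the same members, beside 16.3% and 16.1% of all genes.

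The 4 comparisons share libraries, so their values stand side by side and were not set against each other except by the test of the difference itself. That test did not detect a different response between the fractions for any member. The interaction of treatment and sort fraction called 0 of 77 members in edgeR and 0 of 78 in DESeq2, with 4 members at an unadjusted p under 0.05 in each, beside 0.968% of all 16226 genes called higher and 1.22% lower. The smallest p-values were those of MRPS6 (log2 difference -0.59 ± 0.21, adjusted p = 0.174), MRPL28 (-0.69 ± 0.28, adjusted p = 0.218), MRPL54 (-0.88 ± 0.39, adjusted p = 0.275), MRPL49 (-0.62 ± 0.29, adjusted p = 0.297), MRPL41 (-0.65 ± 0.31, adjusted p = 0.313) and MRPL3 (0.43 ± 0.21, adjusted p = 0.318). These fits did not use the pairing of the sort fractions by culture. With the replicate block, the edgeR interaction called 0 members and 14 had an unadjusted p under 0.05. Of all genes 3.2% were then called higher and 4.59% lower. MRPS6 had 61.1 to 66.3 CPM in control and 30.6 to 41.2 CPM in treated GFP-positive cells, against 62.6 to 77.0 and 54.6 to 58.8 CPM in GFP-negative cells.

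**Figure D5:**
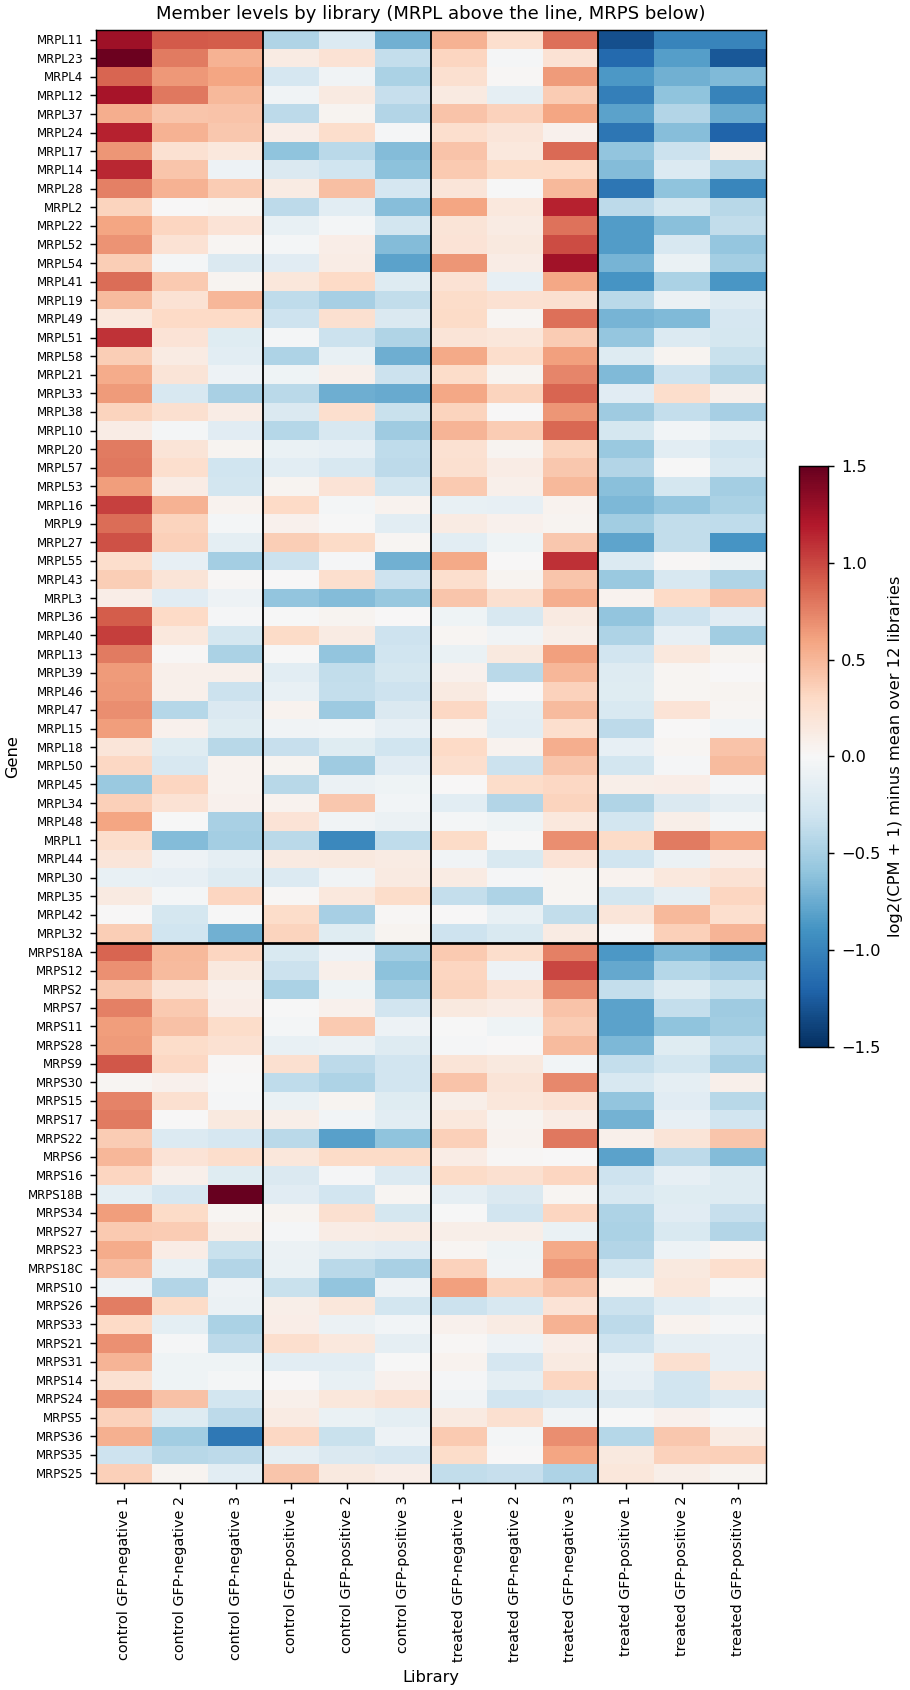
Colour shows log2(CPM + 1) of each member in each of the 12 libraries minus its mean over them, with MRPL genes above the line and MRPS genes below, each ordered by the difference between GFP-positive and GFP-negative libraries. GFP-negative columns are redder for most genes at the top of each block, and control GFP-negative replicate 1 and treated GFP-negative replicate 3 stand out.

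Members of fixed interest that were not called for treatment in either fraction were MRPS12, MRPS16, MRPS18C, MRPS30, MRPS36, MRPL44 and MRPL58. MRPL58, which frees stalled peptides from the ribosome, had 31.0 to 48.3 CPM in control and 41.3 to 53.6 CPM in treated GFP-positive cells (log2 fold change 0.33 ± 0.18, adjusted p = 0.129). MRPS18C had a log2 fold change of 0.47 ± 0.20 (adjusted p = 0.0514) in these cells and MRPS30 of 0.37 ± 0.19 (adjusted p = 0.109). MRPS36 was low, at 1.60 to 7.82 CPM over all libraries.

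The other genes of mitochondrial translation were read in treated GFP-positive cells from lists of known role. Among all genes tested in this comparison 26.5% rose and 24.4% fell. Of 17 translation factors tested, 4 rose (23.5%, near the share of all genes) and 1 fell (5.88%), with a median log2 fold change of 0.19. The initiation factors MTIF2 and MTIF3 rose by 0.70 ± 0.20 and 0.77 ± 0.21, the release factor MTRF1L by 0.83 ± 0.21 and the elongation factor GFM1 by 0.47 ± 0.17. TUFM, which delivers aminoacyl-tRNA and was the most abundant of them named here, fell by 0.49 ± 0.16 (adjusted p = 0.0128), from 258 to 361 CPM to 189 to 230 CPM. TSFM, its exchange factor, and OXA1L, the insertase that receives the products, had log2 fold changes of 0.09 ± 0.18 and 0.32 ± 0.16 and were not called.

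Of 29 assembly factors, 2 rose (6.9%) and 9 fell (31%), with a median of -0.20, beside 26.5% and 24.4% of all genes. The assembly GTPase MTG1 fell by 1.18 ± 0.18, MPV17L2 by 1.04 ± 0.18 and ERAL1, the chaperone of the small subunit RNA, by 0.90 ± 0.17, while FASTKD2 and GTPBP10 rose by 0.60 ± 0.20 and 0.56 ± 0.21. Of 5 ribosomal subunits without an MRP symbol 1 fell (20%), GADD45GIP1, by 0.91 ± 0.18. DAP3, a GTP-binding small subunit protein, had 88.3 to 98.0 CPM in control and 91.4 to 107 CPM in treated libraries (log2 fold change 0.16 ± 0.16). Of 17 mitochondrial aminoacyl-tRNA synthetases 2 rose (11.8%) and 3 fell (17.6%), with AARS2 at 0.77 ± 0.18 and SARS2 at -0.89 ± 0.19.

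Of 21 genes of mitochondrial transcription and RNA handling, 7 rose and 7 fell (33.3% each, median -0.08), beside 26.5% and 24.4% of all genes. TFB2M, which opens mitochondrial promoters for the polymerase, rose by 2.28 ± 0.24 (adjusted p = 8.97e-10), from 2.92 to 5.05 CPM to 14.3 to 25.7 CPM. LRPPRC, which stabilizes mitochondrial mRNA, rose by 1.05 ± 0.16 and TFAM, which packages mitochondrial DNA, by 0.85 ± 0.21, and HSD17B10, a subunit of the tRNA-cutting enzyme, fell by 1.02 ± 0.17. Mitochondrially encoded RNA was not analysed here.

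Of 15 transcription regulators linked to nuclear-encoded mitochondrial genes, 9 rose (60%) and 2 fell (13.3%), with a median of 0.63, beside 26.5% and 24.4% of all genes. ATF4 rose by 1.87 ± 0.17 (adjusted p = 1.44e-11), from 351 to 457 CPM to 1290 to 1562 CPM, and ATF5 by 3.08 ± 0.18. GABPA and its partner GABPB2 rose by 0.74 ± 0.23 and 1.38 ± 0.25. MYCN and ESRRA fell by 1.14 ± 0.18 and 0.66 ± 0.19. NRF1 and YY1 were not called, at -0.01 ± 0.19 and 0.37 ± 0.16.

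Nuclear genes of respiratory complex I were lower for 20 of 36 tested (55.6%) and higher for 2 (5.56%) in the same comparison, with a median of -0.48. Of all genes 24.4% were lower and 26.5% higher. The members had a median of -0.07 there, and cytosolic ribosomal proteins had 25 of 79 higher, 3 lower and a median of 0.21.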

How the data were processed

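The 12 libraries were single-end mRNA sequencing from a stranded kit. The deposited table holds raw counts of reads per gene symbol, which the authors made with HISAT2 and featureCounts on hg38 (GRCh38), tools named in the submitters' processing notes. Versions and the strand setting of the counting are not given in the sources used here. No column of per-sample values was left unused (0).

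CPM were computed with TMM-scaled library sizes over all 12 libraries. Genes passed edgeR's filterByExpr (minimum count 10, minimum total 15), and edgeR 4.0.16 (R 4.3.3) ran a quasi-likelihood test on the 6 libraries of each comparison and on all 12 for the interaction, with p-values adjusted by Benjamini-Hochberg across every gene in the fit. The SE is the fold change over the root of the F statistic. The fold changes are of TMM-scaled counts. Called means an adjusted p under 0.05. Counts of members at an unadjusted p under 0.05 are given without a share over all genes. The tests were checked on simulated counts for the right direction of planted changes of at least 2-fold. That check held no GC, length or replicate effect and does not bear on calls of smaller changes.

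Cultures with the same replicate number paired the sort fractions: deviations from group means correlated at 0.12 to 0.38 in control and 0.20 to 0.48 in treated cultures over 16226 genes. Treated and control libraries of the same number correlated at -0.039, 0.16 and 0.20 in GFP-positive cells (replicates 1 to 3). In GFP-negative cells the values were -0.031, 0.30 and -0.019. Whether such libraries share a thaw is not known from the sources used here, and the main fits did not pair them. Alternatives were DESeq2 1.42.0, other scaling and filters, a replicate block, loess trends (span 0.5) over GC content or transcript length removed, all libraries in 1 fit and each library left out.

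The members and gene lists were chosen with earlier results of these data known. Members were named if they were among the 10 largest called changes per direction for treatment or the 6 largest for sort at a mean of at least 1 CPM, the 6 smallest interaction p-values, the 5 highest or lowest per length, or of fixed interest. From each list, up to 3 called genes per direction and fixed genes were named. MRPL46, MRPL53, MRPS7 and MRPS27 were chosen after their values were seen. Promoter windows are RefSeq's, and gene positions are from GENCODE 44. Figures used matplotlib 3.10.9 on Python 3.11.15.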

Additional observations from a re-analysis of the deposited data

How the results depend on the processing

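Counts of called members changed with the processing as follows, main value first; unless a cause is named here, the cause was not tested. In treated GFP-positive cells 7 members rose, 13 with library size alone, which moves the median of all genes from 0.03 to 0.14, 11 with the length trend removed, 4 among members with no exon shared (fewer members) and 1 at 2-fold. There 15 fell, 4 among members with no exon shared and 3 at 2-fold, and with the replicate block 8 rose and 18 fell. The shares of all genes that rose were 30.2% with library size alone, 26.4% with the length trend removed and 12.8% at 2-fold. At 2-fold 11.2% of all genes fell, and with the block 27.7% rose and 25.9% fell. Only 36 members with no exon shared were tested, here and in each comparison below. Of these 11.1% fell here, against 19.5% of all members tested. In treated GFP-negative cells 3 rose, 9 with the length trend removed, 6 with all 12 libraries and 0 at 2-fold. There 2 fell, 6 in DESeq2, 7 with library size alone, 9 with the length trend removed, 1 with the GC trend removed and a replicate block, 7 with all 12 libraries, 0 among members with no exon shared and 0 at 2-fold, and the replicate block left 3 and 2. The shares of all genes that rose were 19.3% with the length trend removed, 18.9% with all 12 libraries and 8.59% at 2-fold. The shares that fell were 14.4% in DESeq2, 17.4% with library size alone and 19.2% with the length trend removed. They were 14.2% with the GC trend removed and the block, 18.3% with all 12 libraries and 9.75% at 2-fold. With the block alone 13.9% rose and 14.6% fell. Between fractions of control cultures 29 were lower, 47 with the replicate block (paired cultures), 48 with the GC trend removed and the block, 16 with the length trend removed (1 higher) and 11 among members with no exon shared (30.6%, against 37.7% of all members tested). The shares of all genes lower were 23.1% in the main fit, 27.7% with the block, 28.6% with the GC trend removed and the block and 24.4% with the length trend removed. Between fractions of treated cultures 42 were lower, 46 with the replicate block, 27 with the length trend removed and 17 among members with no exon shared (47.2%, against 55.3% of all members tested). The shares of all genes lower were 24.9% in the main fit, 28.9% with the block and 24.6% with the length trend removed. There 3 were higher, 1 with the GC trend removed, 1 with that and the block, 1 with all 12 libraries and 1 among members with no exon shared. The shares of all genes higher were 24.9% in the main fit, 21.9% with the GC trend removed, 27.6% with that and the block and 20.5% with all 12 libraries. The treated sort median of -0.48 became -0.211 with the length trend removed, and its difference between large and small subunit medians became -0.00602 with the GC trend removed and 0.0242 with the block added. The interaction median became 0.157 with library size alone, which moves the median of all genes to 0.205, and the interaction under the replicate block called 0 members with 14 at an unadjusted p under 0.05. MRPL42 reversed to -0.134 in the treated sort comparison with the length trend removed. Leaving out 1 library gave 6 to 8 higher and 10 to 20 lower in treated GFP-positive cells (median -0.145 to 0.00954), 0 to 10 and 0 to 11 in GFP-negative cells (median -0.223 to 0.117), 0 to 1 higher and 11 to 47 lower in the control sort (median -0.579 to -0.269), 1 to 2 and 29 to 43 in the treated sort (median -0.569 to -0.441) and 0 and 0 in the interaction (median -0.277 to 0.129). In these fits 20.9% to 25.4% of all genes rose and 19.6% to 23.7% fell in GFP-positive cells. The shares were 8.53% to 17.5% and 8.89% to 17.4% in GFP-negative cells. In the control sort 17.7% to 25% of all genes were lower, and in the treated sort 20.4% to 23.9%. The difference of large and small subunit medians ranged over -0.16 to -0.0532 in the control sort, -0.169 to -0.08 in the treated sort, -0.00138 to 0.117 in the interaction, 0.026 to 0.134 in GFP-negative and -0.00998 to 0.123 in GFP-positive cells. MRPS18B and MRPS24 rest on few counts that differed widely between control GFP-negative replicates (5, 3 and 85, and 33, 26 and 2), and the cause was not tested.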
